A study of Mus musculus with 15 samples.

Results

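The 10 cyclic nucleotide phosphodiesterase genes Pde1b, Pde2a, Pde3b, Pde4a, Pde4b, Pde4d, Pde7a, Pde7b, Pde8a and Pde8b were followed across 3 subsets of thymic dendritic cells from mice with and without a conditional deletion of the kinase LKB1. They were found by matching the Ensembl identifiers of the count table to mouse symbols, which gave 9 of the 10 among 22165 genes, and all 9 passed the filter on low counts, as did 11746 genes in all. Pde2a is not analysed here. The genes were chosen by name with results of these same counts in view, in particular the difference of Pde8a counts between KO and WT pDC. That difference is therefore given as a description, with no p-value and nothing read from whether it is called, and nothing below is independent support for a pattern already seen in these libraries.

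The study used 3′ RNA sequencing of sorted cells, with 15 libraries in 6 groups. KO mice carried Itgax-cre and 2 floxed alleles of Stk11, the gene of LKB1, and WT mice were the comparison, all on a C57BL/6 background, male and female. The Itgax promoter drives Cre in cells that express CD11c, so other cells of the KO mice keep Stk11. Mice of all groups, 8 to 12 weeks old, received a subcutaneous B16 melanoma that secretes Flt3L, a dendritic cell growth factor, and thymi were taken 9 to 12 days later. Cells enriched on CD11c beads were sorted as conventional dendritic cells of type 1 (cDC1, by CD8a) or type 2 (cDC2, by CD11b), or as plasmacytoid dendritic cells (pDC, by Siglec-H). There were 3 KO and 3 WT libraries of pDC, 3 KO and 2 WT libraries of cDC2, and 2 KO and 2 WT libraries of cDC1. Whether replicates came from separate mice is not stated in the labels, so the p-values measure the spread between these samples, which may be technical.

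Cyclic AMP and cyclic GMP are made by cyclases, mostly on signals from receptors, and phosphodiesterases end the signal by opening the cyclic phosphate. Members of subfamilies 4, 7 and 8 act on cyclic AMP, whereas those of subfamilies 1, 2 and 3 act on both nucleotides. Cyclic AMP dampens inflammatory cytokine release by dendritic cells, and inhibitors of subfamily 4 are used as anti-inflammatory drugs. Among the targets of the pathway is the transcription factor CREB, whose coactivators are held back by the salt-inducible kinases, which LKB1 activates.

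Libraries held 3928164 to 12142712 counts. Of the marker genes used to sort, Siglech followed the labels, at 18773 to 21402 CPM in pDC KO and 15561 to 27698 in pDC WT, and at no more than 238 in any cDC library. Itgam, which encodes CD11b, stood at 160.7 CPM or more in cDC2 KO and 101.9 or more in cDC2 WT, against at most 13.1 in cDC1 KO and 1.87 in cDC1 WT, but pDC KO also reached 63.4 to 68.7 against 2.97 to 7.81 in pDC WT. Cd8a stood at 114 to 141 CPM in cDC1 KO and 249 to 259 in cDC1 WT and at no more than 18.1 in cDC2, but pDC overlapped cDC1 KO, at 78.5 to 102 CPM in pDC KO and 86.3 to 125 in pDC WT. Stk11 itself was still read in every KO library, at 30.6 and 18.4 CPM in cDC1 KO, against 35.6 and 54.2 in cDC1 WT, at 36.1, 28.2 and 29.2 in cDC2 KO, against 34.2 and 34.9 in cDC2 WT, and at 43.5, 33.2 and 36.6 in pDC KO, against 66.8, 40.6 and 46.7 in pDC WT. It was not called in any subset (adjusted p = 1, 0.891 and 0.633 in cDC1, cDC2 and pDC). Tags from the 3′ end may lie outside the deleted part, so these values do not check the deletion. CPM are counts per 1000000 of the library's effective size. The ± after a log2 difference, and a bar in the figures, is a standard error taken from the edgeR test. It is the size of the difference divided by the square root of the F statistic, so it restates that test. Adjusted p-values come from a quasi-likelihood test in edgeR, with the Benjamini-Hochberg adjustment taken over all 11746 genes, and "called" means under 0.05. The reads are tags from the 3′ end of transcripts, so levels are compared within a gene and not between genes. In RNA from sorted populations, fewer cells of one type and less RNA per cell cannot be told apart.

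The subset and genotype of the cells are set beside the promoters of the genes here because cyclic AMP acts on transcription through CREB, which binds TGACGTCA or its shorter form TGACG. RefSeq windows on GRCm38.p6 of 300 bases, from 250 before to 50 after an annotated start, were found for 7 of the 9 genes, 18 windows in all. No window was found for Pde3b or Pde7a, so these genes were not searched for the motif. TGACGTCA was in none of the 18 windows and is in 1.79% of all 32851 windows of that length. TGACG, on either strand and including any copy inside the longer motif, was in 4 of the 18, against 20.8% of all windows. The 4 windows belonged to Pde4a, Pde4b, Pde8a and Pde8b. Those of Pde8a, whose level differed between KO and WT pDC, and of Pde4b, whose level varied widely between libraries of 1 group, are shown 5′ to 3′ on the plus strand, with the motif in capitals and the rest in lower case. The Pde8a window lies at chr7:81213015-81213314 and the Pde4b window at chr4:102421305-102421604, where Pde4b carries the reverse complement of the motif.
Pde8a: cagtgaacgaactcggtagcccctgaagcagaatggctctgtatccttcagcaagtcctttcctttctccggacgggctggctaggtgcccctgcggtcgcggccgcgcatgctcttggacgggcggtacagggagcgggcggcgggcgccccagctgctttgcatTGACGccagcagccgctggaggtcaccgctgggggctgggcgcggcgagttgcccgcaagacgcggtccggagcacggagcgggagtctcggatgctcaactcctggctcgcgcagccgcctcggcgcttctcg
Pde4b: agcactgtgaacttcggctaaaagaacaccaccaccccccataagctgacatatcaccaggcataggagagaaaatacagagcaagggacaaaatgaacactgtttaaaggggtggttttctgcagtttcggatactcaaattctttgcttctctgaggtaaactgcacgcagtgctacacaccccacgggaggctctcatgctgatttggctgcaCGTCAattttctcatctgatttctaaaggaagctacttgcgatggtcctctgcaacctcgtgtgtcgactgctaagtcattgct
The motif begins 84 bases before the RefSeq start in Pde8a and 34 bases before it in Pde4b, and 3 other annotated Pde4b windows lack it. The Pde4b window lies inside the gene as placed by the GENCODE annotation, and the Pde8a window lies before the GENCODE start of its gene. Tags from the 3′ end do not tell which start the counted RNA came from. A match of letters is a description and does not show that CREB binds there.

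**Figure D1:**
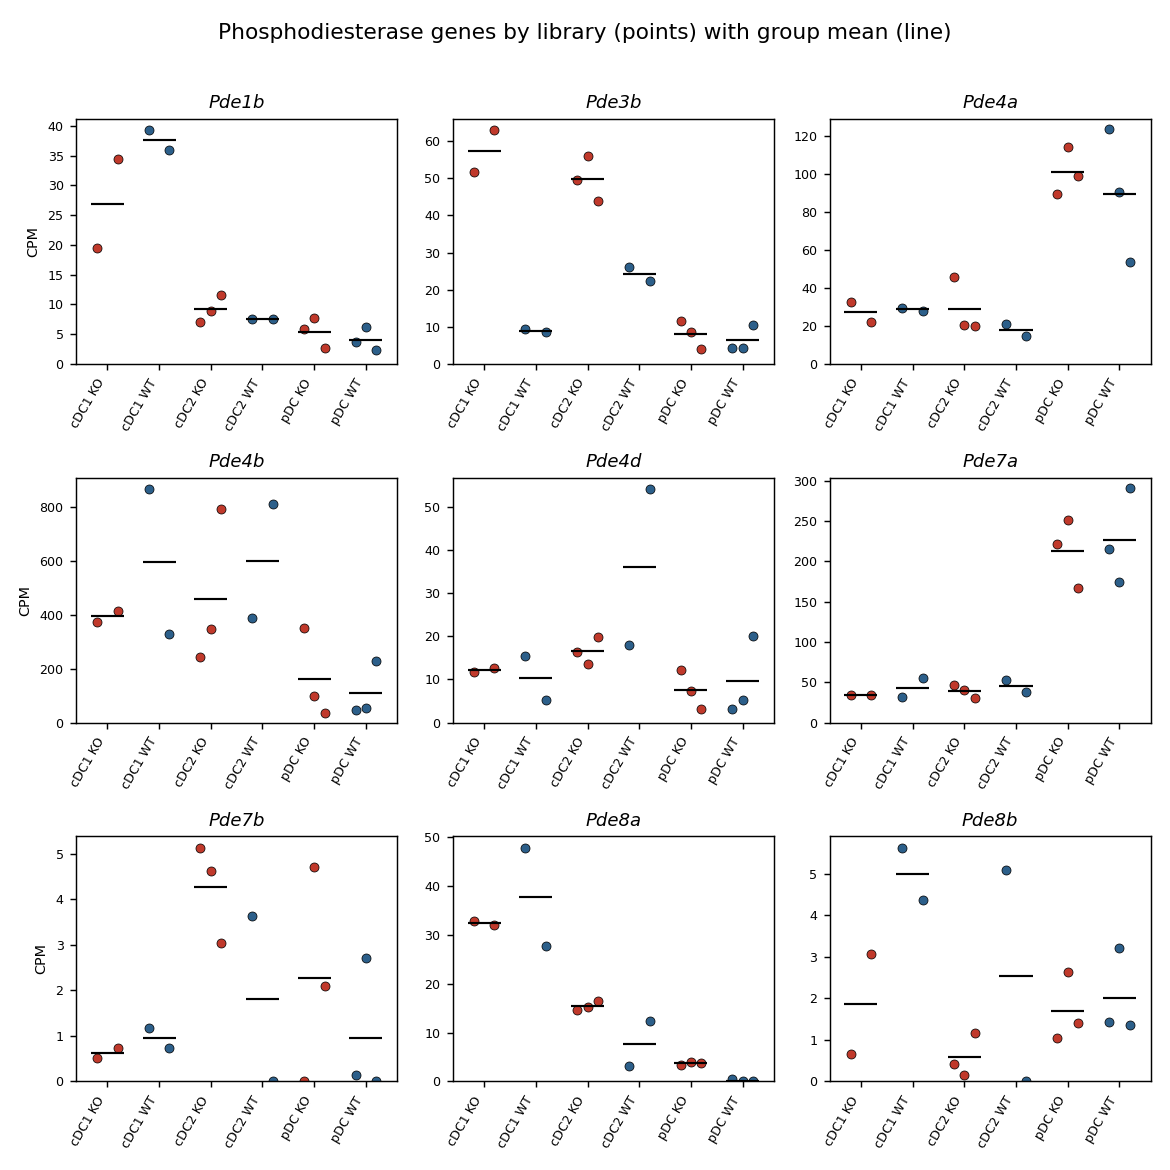
CPM (linear axis from 0, a separate scale for each gene) of the 9 genes in each of the 15 libraries, by subset and genotype; points are libraries and lines are group means. Pde3b stands above WT in all 5 cDC KO libraries, Pde7a and Pde4a are highest in pDC of both genotypes, and Pde8a is at 0 in 2 of the 3 pDC WT libraries.

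Pde3b is the cyclic GMP-inhibited enzyme through which insulin lowers cyclic AMP in fat cells. It was the only member whose KO libraries lay above WT without overlap in both cDC1 and cDC2. In cDC1 it stood at 51.6 and 63.1 CPM in KO libraries, against 9.37 and 8.55 CPM in WT libraries. In cDC2 it stood at 49.6, 56.1 and 44.0 CPM in KO libraries, against 26.0 and 22.3 CPM in WT libraries. In pDC it stood at 11.5, 8.61 and 4.03 CPM in KO libraries, against 4.17, 4.38 and 10.5 CPM in WT libraries. KO and WT libraries thus did not overlap in cDC1 or in cDC2, and they overlapped in pDC. Of all genes, 37.2% did not overlap in cDC1 and 34.8% in cDC2. The log2 difference averaged over the 3 subsets was 1.36 ± 0.26 (adjusted p = 0.0341). Pde3b was the 1 member of 9 called in that average, where 0.306% of all genes were. Within a single subset the differences were not called, at 2.68 ± 0.50 in cDC1 (adjusted p = 0.133), 1.05 ± 0.44 in cDC2 (adjusted p = 0.302) and 0.34 ± 0.40 in pDC (adjusted p = 0.836).

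The call for Pde3b in the average rested on many libraries at once. It ended with the replicate number as a block (adjusted p = 0.0684) and without any 1 of the 4 cDC1 libraries, the 5 cDC2 libraries, pDC KO 1, pDC KO 2 or pDC WT 2 (adjusted p = 0.0501 to 0.158), while the difference stayed between 1.24 and 1.51 in all 20 alternative settings. In cDC1 alone the difference lay between 2.53 and 2.82 in 21 settings and was called in 5 of them. These 5 were limma voom (adjusted p = 0.00561), no filter on low counts (0.000361), a fit of the cDC1 libraries alone (0.0431), and the fits without pDC KO 3 (0.0452) or pDC WT 3 (0.0457). The KO effect was smaller in pDC than in cDC1 by 2.34 ± 0.63 (adjusted p = 0.238) and smaller in cDC2 than in cDC1 by 1.63 ± 0.64 (adjusted p = 0.541), so neither difference between subsets was called. The effect in pDC differed from that in cDC2 by −0.71 ± 0.59 (adjusted p = 0.781).

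Some marker lists also did not overlap between KO and WT in the conventional subsets, as did many single genes, so nothing is read from their number. In cDC1, 5 of 13 lists did not overlap, beside 37.2% of all single genes. The 11 cDC1 markers summed to 7896 to 8948 CPM in cDC1 KO and 11080 to 11650 in cDC1 WT, and the 15 thymocyte and T cell markers to 149.7 to 247.1 in cDC1 KO, with Ptcra at 0, and 252.1 to 279.6 in cDC1 WT. The 9 macrophage markers summed to 39.2 to 50.1 CPM in cDC1 KO and 23.1 to 29.8 in cDC1 WT, with Cd5l at 0 in both, the 8 NK cell markers to 8.02 to 14.5 in cDC1 KO and 3.82 to 6.56 in cDC1 WT, and the 12 dissociation stress genes to 12300 to 17580 in cDC1 KO and 11280 to 12220 in cDC1 WT. The 10 cDC2 markers overlapped as a sum, at 334.9 to 368.5 CPM in cDC1 KO and 320.5 to 437 in cDC1 WT. Of these 10, 6 had a positive difference and Itgam was called higher in cDC1 KO (adjusted p = 0.0431). The 12 pDC markers also overlapped as a sum, and 1 of them was called higher in cDC1 KO (edgeR, adjusted p = 0.001675). Of the 12, 10 had a positive difference. Among them Cox6a2 stood at 32.9 to 33.7 CPM in cDC1 KO and 0 to 1.17 in cDC1 WT. KO libraries of Itgam and of Cox6a2 also lay above WT without overlap in cDC2 and in pDC, so neither rise is particular to cDC1. In cDC2, 3 of 13 lists did not overlap, beside 34.8% of all single genes. The 12 markers of mature dendritic cells summed to 1334 to 2083 CPM in cDC2 KO and 945.3 to 1300.0 in cDC2 WT, the thymocyte and T cell markers to 101.4 to 116.4 in cDC2 KO, with Rag2 at 0, and 127.4 to 202.5 in cDC2 WT, with Ptcra at 0, and the 12 pDC markers to 1443 to 1618 in cDC2 KO, with Klk1 at 0, and 1717 to 2183 in cDC2 WT. The part of these cells and states in the Pde3b difference was not tested.

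Pde8a, a high-affinity cyclic AMP-specific enzyme that resists common phosphodiesterase inhibitors, had a graded pattern over the subsets. It stood at 32.8 and 32.1 CPM in cDC1 KO libraries, against 47.8 and 27.7 CPM in cDC1 WT libraries. In cDC2 it stood at 14.7, 15.3 and 16.5 CPM in KO libraries, against 3.16 and 12.3 CPM in WT libraries. In pDC it stood at 3.30, 4.02 and 3.85 CPM in KO libraries, against 0.521, 0 and 0 CPM in WT libraries. KO was above WT without overlap in cDC2 and in pDC, and the genotypes overlapped in cDC1. The pDC values rest on 73 counts in the 3 KO libraries and 4 counts in the 3 WT libraries, all 4 in pDC WT 1. The log2 difference in pDC was 4.34, a fitted value that rests on those few counts. It was 0.97 ± 0.58 in cDC2 (adjusted p = 0.491) and −0.22 ± 0.60 in cDC1 (adjusted p = 1), and neither was called. Averaged over the subsets it was 1.70 ± 0.39, which again takes in the pDC difference.

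Of the 10 cDC2 markers, 3 had a positive difference in pDC, with a median log2 difference of −0.05, against 0 over all genes. Of these 10, 1, Itgam, was called higher in pDC KO, at 63.4 to 68.7 CPM, against 2.97 to 7.81 CPM in pDC WT (adjusted p = 0.000112). Itgam also lay above WT without overlap in cDC1 KO and cDC2 KO, so its rise is not particular to pDC. The cDC2 markers summed to 819.4 to 835.9 CPM in pDC KO, with Clec4a4 at 0, and 719.9 to 879.3 in pDC WT. The 11 markers of cDC1, the subset in which Pde8a was highest, summed to 7158 to 9750 CPM in pDC KO and 7384 to 8784 in pDC WT. Most of that sum is Irf8, at 5894 to 8461 CPM in pDC KO and 6673 to 7726 in pDC WT, which pDC express themselves, so the sum says little about cDC1. Of the 11, 0 were called in pDC by edgeR, 1 was at an unadjusted p under 0.05, and 4 had a positive difference. Among these 4, Cadm1 stood at 701 to 890.0 CPM in pDC KO and 68.2 to 960.5 in pDC WT, Batf3 had 57 counts in pDC KO and 36 in pDC WT, and Tlr3 had 18 counts in pDC KO and 3 in pDC WT. Naaa stood at 21.4 to 30.3 CPM in pDC KO and 24.2 to 33.5 in pDC WT, and Wdfy4 at 45.3 to 51.1 in pDC KO and 60.9 to 67.6 in pDC WT. The part of other subsets in the Pde8a difference was not tested.

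Pde1b was higher in cDC1 than in the other subsets and was not called between genotypes. This calcium and calmodulin-dependent enzyme acts on both nucleotides and is induced when human monocytes become macrophages in culture. It stood at 19.5 and 34.4 CPM in cDC1 KO libraries, against 39.4 and 36.0 CPM in cDC1 WT libraries. In cDC2 it stood at 6.99, 8.93 and 11.6 CPM in KO libraries, against 7.52 and 7.53 CPM in WT libraries. In pDC it stood at 5.85, 7.77 and 2.63 CPM in KO libraries, against 3.65, 6.19 and 2.27 CPM in WT libraries. Both cDC1 KO libraries were below both cDC1 WT libraries, with a log2 difference of −0.48 ± 0.51 (adjusted p = 1), and the genotypes overlapped in cDC2 and pDC. All 4 cDC1 libraries were above all 11 others. Pde1b fell by 3.22 ± 0.49 on the log2 scale in pDC WT relative to cDC1 WT (adjusted p = 9.74e-05) and by 2.30 ± 0.48 in pDC KO relative to cDC1 KO (adjusted p = 0.00187). The KO call ended without cDC1 KO 2 (adjusted p = 0.0526).

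The 3 members of subfamily 4, the main cyclic AMP-degrading enzymes of immune cells, did not behave alike across the subsets. Pde4a stood at 89.5, 114.1 and 99.1 CPM in pDC KO libraries, against 123.5, 90.4 and 53.7 CPM in pDC WT libraries. It stood at 32.4 and 21.9 CPM in cDC1 KO libraries, against 29.5 and 28.0 CPM in cDC1 WT libraries, and at 45.8, 20.2 and 19.9 CPM in cDC2 KO libraries, against 20.9 and 14.5 CPM in cDC2 WT libraries. All 6 pDC libraries were above all 9 cDC libraries, and KO overlapped WT in each subset. The log2 difference of pDC from cDC1 was 1.89 ± 0.42 in KO (adjusted p = 0.00331) and 1.63 ± 0.42 in WT (adjusted p = 0.00767). From cDC2 it was 1.82 ± 0.36 in KO (adjusted p = 0.00108) and 2.34 ± 0.44 in WT (adjusted p = 0.000755). The KO call against cDC1 ended without cDC1 KO 2 (adjusted p = 0.0705), and the WT call against cDC1 without cDC1 WT 1 (0.0604) or cDC1 WT 2 (0.0632).

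Pde4b, induced in myeloid cells by bacterial products, was higher in cDC than in most pDC libraries and varied widely within groups. It stood at 372.7 and 415 CPM in cDC1 KO libraries, against 867 and 327 CPM in cDC1 WT libraries, and at 242, 347 and 791 CPM in cDC2 KO libraries, against 387 and 810.0 CPM in cDC2 WT libraries. In pDC it stood at 349, 98.0 and 34.0 CPM in KO libraries, against 47.0, 53.4 and 230.0 CPM in WT libraries. The genotypes overlapped in each subset, and pDC KO 1 reached the range of the cDC libraries. Its log2 difference between KO and WT was −0.60 ± 0.91 in cDC1 (adjusted p = 1), −0.38 ± 0.82 in cDC2 (adjusted p = 0.891) and 0.54 ± 0.75 in pDC (adjusted p = 0.875). In WT, Pde4b fell by 2.44 ± 0.83 on the log2 scale in pDC relative to cDC1 (adjusted p = 0.0404) and by 2.44 ± 0.83 relative to cDC2 (adjusted p = 0.0453). These 2 calls held in 12 and 10 of 21 alternative settings. That against cDC1 ended without cDC1 KO 1 or 2, cDC1 WT 1 or 2, cDC2 KO 2, or pDC WT 1 or 2, and without cDC1 WT 1 Pde4b fell by 1.56 (adjusted p = 0.383). That against cDC2 ended without any 1 of the 4 cDC1 libraries, cDC2 KO 1 or 2, cDC2 WT 1 or 2, or pDC WT 1 or 2, and without cDC2 WT 2 Pde4b fell by 1.81 (adjusted p = 0.258).

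Pde4d, which is held at membranes and anchoring proteins in several splice forms, followed Pde4b between the libraries of pDC. It stood at 12.1, 7.36 and 3.15 CPM in pDC KO libraries, against 3.12, 5.29 and 20.2 CPM in pDC WT libraries. It stood at 16.4, 13.6 and 19.7 CPM in cDC2 KO libraries, against 18.0 and 54.2 CPM in cDC2 WT libraries, and at 11.8 and 12.7 CPM in cDC1 KO libraries, against 15.5 and 5.28 CPM in cDC1 WT libraries. KO and WT overlapped in each subset, and cDC2 WT 2 stood above all other libraries. The genotype differences were not called in any subset, at 0.25 ± 0.77 in cDC1 (adjusted p = 1), −1.13 ± 0.67 in cDC2 (adjusted p = 0.487) and −0.34 ± 0.63 in pDC (adjusted p = 0.926). In WT, Pde4d fell by 1.92 ± 0.68 on the log2 scale in pDC relative to cDC2 (adjusted p = 0.0475), a call that held in 10 of 21 alternative settings. The call ended without cDC1 KO 1 or 2, any 1 of the 3 cDC2 KO libraries, cDC2 WT 2, pDC KO 2, or pDC WT 1 or 2. Without cDC2 WT 2 Pde4d fell by 0.90 (adjusted p = 0.495).

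**Figure D2:**
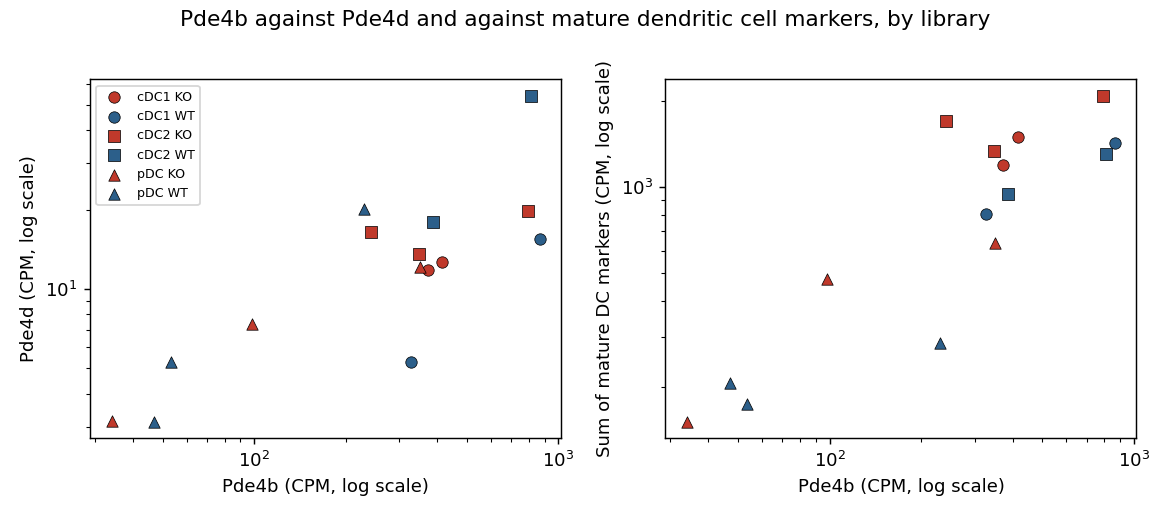
Pde4b (CPM, log axis) against Pde4d (left, CPM, log axis) and against the summed level of 12 markers of mature dendritic cells (right, CPM, log axis); each point is 1 of 15 libraries, red for KO and blue for WT, with circles for cDC1, squares for cDC2 and triangles for pDC. Among pDC, the libraries with the most Pde4b, pDC KO 1 (349 CPM) and pDC WT 3 (230.0 CPM), also have the most Pde4d of their genotype, at 12.1 and 20.2 CPM.

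Other genes moved with Pde4b and Pde4d between the pDC libraries. The 12 markers of mature dendritic cells, all with counts in both groups, summed to 635.6, 477.9 and 151.6 CPM in pDC KO libraries, against 207.4, 174.9 and 286.6 CPM in pDC WT libraries. The 12 dissociation stress genes, which are induced while tissue is digested, summed to 19920, 14370 and 9165 CPM in pDC KO libraries, against 11700, 11810 and 17310 CPM in pDC WT libraries. In KO the library with the most Pde4b had the most of both lists and that with the least had the least, and in WT pDC WT 3 had the most of both. Among the cDC groups the stress genes followed the order of Pde4b in cDC2 KO only. In cDC2 WT they summed to 21440 and 13430 CPM, beside Pde4b at 387 and 810.0 CPM. The part of maturation or of tissue handling in the levels of Pde4b and Pde4d was not tested.

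Subfamily 7 was read from Pde7a, which was high in pDC, and from Pde7b at few counts. Pde7a, a high-affinity cyclic AMP enzyme that is abundant in T cells, stood at 222, 251 and 166 CPM in pDC KO libraries, against 215, 175 and 291 CPM in pDC WT libraries. In cDC it stood at 34.3 and 34.7 CPM in cDC1 KO libraries, against 31.4 and 54.8 CPM in cDC1 WT libraries, and at 47.0, 40.2 and 30.3 CPM in cDC2 KO libraries, against 52.9 and 37.8 CPM in cDC2 WT libraries. All 6 pDC libraries lay above all 9 cDC libraries, and KO overlapped WT in each subset. The log2 difference of pDC from cDC1 was 2.63 ± 0.36 in KO (adjusted p = 3.45e-05) and 2.39 ± 0.36 in WT (adjusted p = 7.9e-05). From cDC2 it was 2.44 ± 0.30 in KO (adjusted p = 9.2e-06) and 2.33 ± 0.35 in WT (adjusted p = 0.000107), and these 4 calls held in all 21 alternative settings. Between genotypes the difference was −0.32 ± 0.36 in cDC1 (adjusted p = 1), −0.21 ± 0.33 in cDC2 (adjusted p = 0.843) and −0.09 ± 0.29 in pDC (adjusted p = 0.972).

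The 15 thymocyte and T cell markers in the table summed higher in pDC than in cDC, where Pde7a was lower. They summed to 567.5 to 615.4 CPM in pDC KO and 599.1 to 742.3 in pDC WT, against 149.7 to 247.1 in cDC1 KO, 252.1 to 279.6 in cDC1 WT, 101.4 to 116.4 in cDC2 KO and 127.4 to 202.5 in cDC2 WT. The sums were lower in cDC2 than in cDC1, whereas Pde7a was not called between those subsets. Relative to cDC1, 5 of the 15 markers had a positive difference in pDC WT (median log2 difference −0.27, 3 called higher). In pDC KO these were 10 of 15 (median 0.38, 4 called higher and 1 lower). Relative to cDC2, 12 were positive in WT and 14 in KO. All 15 had counts in pDC of both genotypes, some of these genes are known in pDC themselves, and the part of T cells in the Pde7a difference was not tested. Pde7b, its close relative, was near the limit of detection. It had 36, 58 and 21 counts in cDC2 KO libraries, against 15 and 0 counts in cDC2 WT libraries, 0, 34 and 12 counts in pDC KO libraries, against 1, 21 and 0 counts in pDC WT libraries, and at most 5 counts in any cDC1 library. Its genotype differences had standard errors of 1.47 to 1.91 on the log2 scale and none was called.

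Pde8b, the second gene of subfamily 8, was also read from few tags. It had 5 and 21 counts in cDC1 KO libraries, against 24 and 24 counts in cDC1 WT libraries, or 0.654 and 3.06 CPM against 5.62 and 4.37 CPM. It had 3, 2 and 8 counts in cDC2 KO libraries, against 21 and 0 counts in cDC2 WT libraries, and 7, 19 and 8 counts in pDC KO libraries, against 11, 25 and 12 counts in pDC WT libraries. KO was below WT without overlap in cDC1, and the genotypes overlapped in the other two subsets. The log2 difference in cDC1 was −1.42 ± 1.42 (adjusted p = 1).

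Set side by side, the genotype comparisons called few members and few genes of any kind. In cDC1, 0 of 9 members and 0.0255% of all genes were called, and in cDC2 0 of 9 members and 0.119% of all genes. At an unadjusted p under 0.05 there was 1 member in each, Pde3b, and DESeq2 called 0 in both, while limma voom called 1 in cDC1 and 0 in cDC2. In pDC the count of 1, beside 0.0681% of all genes, is Pde8a, whose difference guided the choice, so nothing is read from it. KO and WT libraries did not overlap for 3 of 9 members in cDC1 (Pde1b and Pde8b below, Pde3b above), where 37.2% of all genes did not overlap. They did not overlap for 2 of 9 in cDC2 (Pde3b and Pde8a, both above), beside 34.8% of all genes, and for 1 of 9 in pDC (Pde8a), beside 11.3%. Over the 9 members the median log2 difference was −0.32 for cDC1, 0.28 for cDC2 and 0.34 for pDC, against 0, 0.09 and 0 over all genes.

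**Figure D3:**
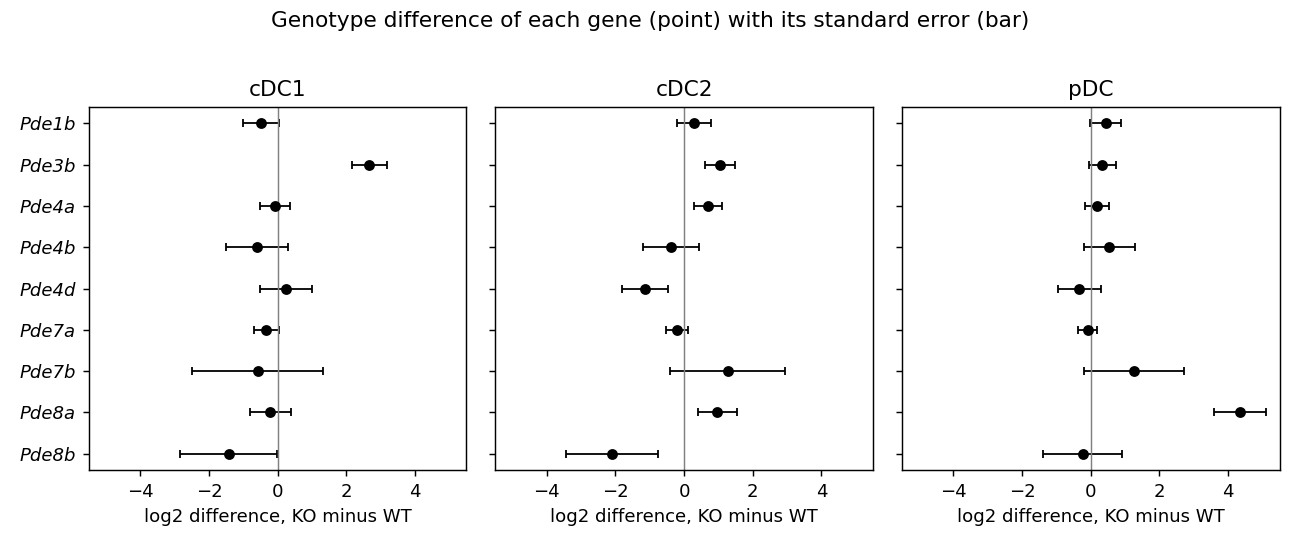
Log2 difference, KO minus WT, of the 9 genes in cDC1, cDC2 and pDC; points are estimates of edgeR and bars are standard errors. Pde3b in cDC1 (2.68) and Pde8a in pDC (4.34) lie farthest from 0, and the bars of Pde7b and Pde8b are the widest.

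The effect of genotype was not shown to differ between subsets for any member. Between the pDC and cDC1 effects 0 of 9 members and 0% of all genes were called by edgeR. Of the members, 2 (Pde3b and Pde8a) were at an unadjusted p under 0.05, with 1 called by DESeq2 and 0 by limma voom. Between the pDC and cDC2 effects 0 of 9 and 0% of all genes were called, with 1 (Pde8a) at an unadjusted p under 0.05 and 0 by either other tool. Both comparisons take in the pDC difference of Pde8a that guided the choice, so nothing is read from its part in these counts. Between the cDC2 and cDC1 effects 0 of 9 and 0.00851% of all genes were called, with 1 at an unadjusted p under 0.05 and 0 by either other tool.

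More members were called between subsets than between genotypes. The subset comparisons in KO and in WT set different libraries side by side, but share 1 fit and its pooled spread, so they are not independent. Between pDC and cDC1, 5 of 9 members were called in KO, beside 21.5% of all genes, and 5 of 9 in WT, beside 27.7%. Pde4a and Pde7a were higher and Pde1b and Pde8a lower in pDC in both genotypes, while the fifth was Pde3b in KO and Pde4b in WT, both lower. Between pDC and cDC2, 4 of 9 were called in KO, beside 25.9% of all genes, and 6 of 9 in WT, beside 23.6%. Pde4a and Pde7a were higher and Pde3b and Pde8a lower in pDC in both genotypes, and Pde4b and Pde4d were lower in WT. Each of these counts with pDC includes Pde8a, whose pDC libraries hold the difference that guided the choice. Nothing is read from its part in them. Between cDC2 and cDC1, 0 of 9 were called in KO, beside 1.27% of all genes, and 2 of 9 in WT, beside 8.73%. At an unadjusted p under 0.05 there was 1 such member in KO, DESeq2 called 0 and limma voom 2.

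Pde3b fell by 2.82 ± 0.43 on the log2 scale in pDC KO relative to cDC1 KO (adjusted p = 0.000109), whereas the difference was −0.49 ± 0.45 between pDC WT and cDC1 WT (adjusted p = 0.464). Relative to cDC2 it fell by 2.62 ± 0.41 in pDC KO (adjusted p = 9.56e-05) and by 1.91 ± 0.43 in pDC WT (adjusted p = 0.00341). Its difference between cDC2 and cDC1 was −0.20 ± 0.42 in KO (adjusted p = 1) and 1.43 ± 0.49 in WT (adjusted p = 0.0764). Pde8a fell by 3.12 ± 0.57 in pDC KO relative to cDC1 KO (adjusted p = 0.000624) and by 7.68 ± 0.77 in pDC WT relative to cDC1 WT (adjusted p = 1.07e-06). Relative to cDC2 it fell by 2.05 ± 0.53 in KO (adjusted p = 0.00777) and by 5.43 ± 0.78 in WT (adjusted p = 5.94e-05), where the WT values again rest on 4 counts in pDC. These 4 comparisons of Pde8a share their pDC libraries with the difference that guided the choice, so nothing is read from whether they are called. In cDC2 WT relative to cDC1 WT, Pde1b fell by 2.32 ± 0.55 (adjusted p = 0.0153) and Pde8a by 2.25 ± 0.63 (adjusted p = 0.035). The Pde1b call ended without any 1 of the 4 cDC1 WT and cDC2 WT libraries (adjusted p = 0.0588 to 0.0949). The Pde8a call held in 12 of 21 alternative settings and ended without any 1 of the 4 cDC1 libraries, cDC2 KO 1 or 2, or cDC2 WT 1. Without cDC2 WT 1 Pde8a fell by 1.62 (adjusted p = 0.166).

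**Figure D4:**
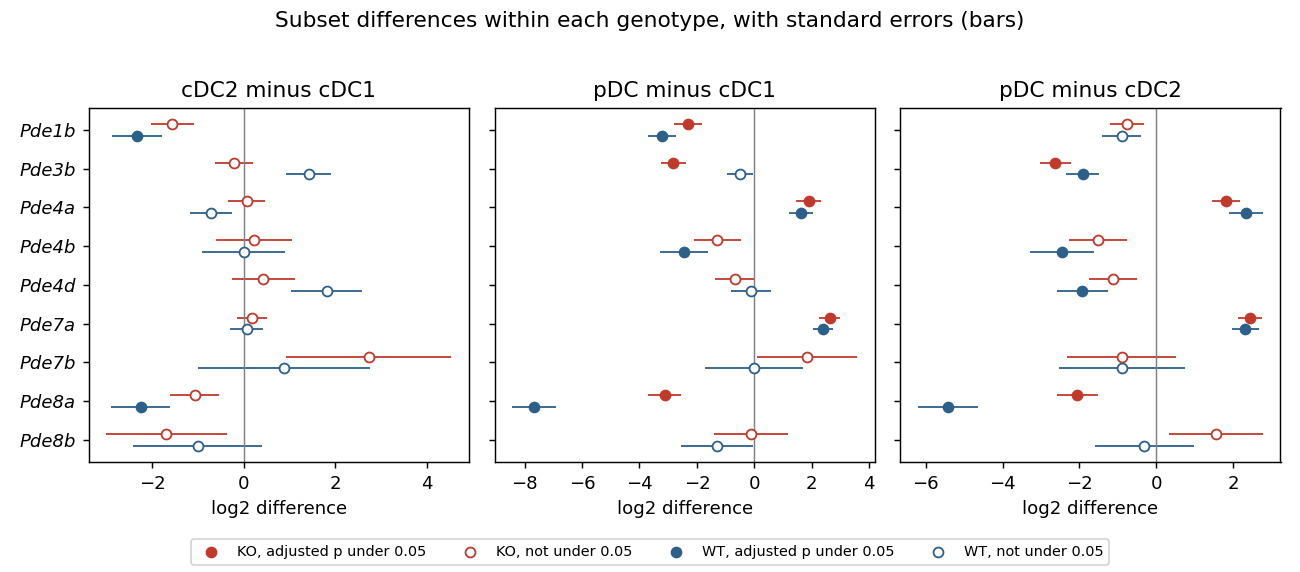
Log2 differences between subsets for the 9 genes (cDC2 minus cDC1, pDC minus cDC1, pDC minus cDC2), in KO (red) and WT (blue); bars are standard errors and filled points have an adjusted p under 0.05. Pde4a and Pde7a lie right of 0 and Pde8a left of 0 in both genotypes wherever pDC is compared, and Pde3b is called against cDC1 in KO (−2.82).

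The other 14 phosphodiesterase genes of the family were all in the table and 6 passed the filter: Pde1c, Pde4c, Pde5a, Pde6a, Pde6d and Pde10a. In the genotype comparisons 0 of these 6 were called, with 0 in cDC1, 3 in cDC2, 2 in pDC and 1 in the average at an unadjusted p under 0.05. The counts for cDC2, pDC and the average include Pde10a. Pde10a, which acts on both nucleotides and is best known from the striatum, had 8, 18 and 3 counts in cDC2 KO libraries, against 0 and 0 counts in cDC2 WT libraries, and 1, 13 and 4 counts in pDC KO libraries, against 0 counts in each of the 3 pDC WT libraries. Only in cDC2 KO 2 and pDC KO 2 did Pde10a reach 10 counts, so it passed the filter on low counts through KO libraries. Its pooled level was 1.10 CPM in cDC2 KO and 0.919 CPM in pDC KO. These were 3.93 and 7.43 times a floor of 3 counts over the WT group. That floor leaves out the spread between KO libraries, and pDC KO 1 had 1 count. Neither difference was called (edgeR, adjusted p = 0.36 and 0.386), and nothing is read from them. In cDC1 Pde10a had 2 and 4 counts in KO libraries, against 3 and 0 counts in WT libraries. Pde5a, the cyclic GMP-specific enzyme inhibited by sildenafil, stood at 8.39, 6.66 and 16.4 CPM in pDC KO libraries, against 17.1, 24.3 and 40.7 CPM in pDC WT libraries, with all KO values below all WT values. Its log2 difference was −1.38 ± 0.58 (adjusted p = 0.425).

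Of the remaining tested genes, Pde1c, Pde6d and Pde6a stood higher in all cDC2 KO than in all cDC2 WT libraries, where 34.8% of all genes did not overlap. Pde1c had 7.98, 8.77 and 11.9 CPM in cDC2 KO libraries, against 1.94 and 4.82 CPM in cDC2 WT libraries (log2 difference 1.46 ± 0.69, adjusted p = 0.373). Pde6d, a carrier of prenylated proteins rather than an enzyme, had 10.7, 7.57 and 10.4 CPM in cDC2 KO libraries, against 4.85 and 4.37 CPM in cDC2 WT libraries (log2 difference 1.05 ± 0.49, adjusted p = 0.362). Pde4c was at 0 counts in all 6 pDC libraries and had at most 17 counts in a cDC library. Pde6a, a catalytic subunit of the rod photoreceptor, had 47 counts in cDC1 WT 1 and 40 in pDC WT 1 but at most 21 in any other library. It had 4, 7 and 11 counts in cDC2 KO libraries, against 1 and 0 in cDC2 WT libraries. In cDC1 its order was the other way, at 11 and 7 counts in KO libraries, against 47 and 13 in WT libraries. In WT, Pde1c fell by 1.88 ± 0.64 in pDC relative to cDC1 (adjusted p = 0.0375) and Pde5a rose by 2.17 ± 0.70 in pDC relative to cDC2 (adjusted p = 0.0325). The other 8 genes were not tested. Among these, Pde11a had 265 counts in cDC2 KO 2 and at most 5 in any other library.

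Genes around the phosphodiesterases were read from 5 lists that cover synthesis, sensing and response to cyclic nucleotides. In each of cDC1, cDC2, pDC and the average, 0 genes of any list were called between KO and WT by edgeR: 0 of 10 tested cyclases, 0 of 16 G proteins and receptors coupled to cyclase, 0 of 18 effectors such as protein kinase A subunits and anchoring proteins, 0 of 11 members of the CREB group, and 0 of 16 genes known to be induced by cyclic AMP. At an unadjusted p under 0.05 the counts in cDC1, cDC2, pDC and the average were 0, 2, 2 and 2 for the cyclases, 0, 1, 1 and 0 for the receptors, 2, 3, 2 and 2 for the effectors, 0, 0, 3 and 1 for the CREB group, and 1, 1, 0 and 0 for the induced genes. For the induced genes the median log2 difference was 0.08 in each conventional subset and 0.19 in pDC, against 0 in cDC1, 0.09 in cDC2 and 0 in pDC over all genes.

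The genes of these lists with the smallest p-values between genotypes, none of them called, were spread over the subsets. Adcy6, an adenylyl cyclase, stood at 24.6 and 20.3 CPM in cDC1 KO libraries, against 16.2 and 13.1 CPM in cDC1 WT libraries. In cDC2 it stood at 29.1, 17.9 and 16.5 CPM in KO libraries, against 7.77 and 5.87 CPM in WT libraries. In pDC it stood at 9.14, 3.47 and 2.45 CPM in KO libraries, against 2.47, 0 and 1.93 CPM in WT libraries. The genotypes did not overlap in cDC1 or cDC2, and the averaged log2 difference was 1.34 ± 0.42 (adjusted p = 0.27). Gucy2c, a guanylyl cyclase receptor, differed by 2.58 ± 1.02 in the average (adjusted p = 0.401), a fitted value that includes the pDC WT group at 0. It had 13 counts in pDC KO 2 and 0 counts in pDC KO 1, pDC KO 3 and cDC2 WT 1. Vipr1, a receptor for vasoactive intestinal peptide, stood at 8.41, 9.09 and 10.7 CPM in cDC2 KO libraries, against 15.5 and 19.9 CPM in cDC2 WT libraries (log2 difference −0.91 ± 0.40, adjusted p = 0.34). Adora2b, an adenosine receptor, had 0 counts in each of the 3 pDC KO libraries, against 21, 4 and 0 counts in pDC WT libraries (adjusted p = 0.375).

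Sik1, a salt-inducible kinase that LKB1 activates and that cyclic AMP induces, stood at 490.3, 404 and 192 CPM in pDC KO libraries, against 248, 192 and 121 CPM in pDC WT libraries. The groups overlapped, and the log2 difference was 0.95 ± 0.33 (adjusted p = 0.351). Its relative Sik3 stood at 31.6, 24.7 and 24.3 CPM in pDC KO libraries, against 18.5, 15.9 and 12.1 CPM in pDC WT libraries, with no overlap (log2 difference 0.80 ± 0.31, adjusted p = 0.408). Akap5, which anchors protein kinase A, stood at 266, 42.9 and 31.0 CPM in pDC KO libraries, against 28.5, 24.6 and 22.2 CPM in pDC WT libraries, so that pDC KO 1 stood apart (log2 difference 2.18 ± 0.62, adjusted p = 0.267). Akap8, a nuclear anchoring protein, stood at 120, 138 and 114 CPM in cDC2 KO libraries, against 192 and 292 CPM in cDC2 WT libraries (log2 difference −0.96 ± 0.28, adjusted p = 0.154). In cDC1 its order was the other way, at 141 and 123 CPM in KO libraries, against 66.8 and 76.0 CPM in WT libraries. Areg, a growth factor of the induced list, had 22 and 37 counts in cDC1 KO libraries, against 6 and 0 counts in cDC1 WT libraries (adjusted p = 1). Thbs1 had 32, 60 and 13 counts in cDC2 KO libraries, against 0 counts in both cDC2 WT libraries (adjusted p = 0.285).

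Between subsets, the counts of called genes in these lists lay on both sides of the share of all genes. Between pDC KO and cDC1 KO, where 21.5% of all genes were called, 5 of 10 cyclases (3 higher and 2 lower in pDC), 6 of 16 receptors and G proteins (2 and 4), 4 of 18 effectors (3 and 1), 1 of 11 of the CREB group (higher) and 5 of 16 induced genes (all lower) were called. Between pDC WT and cDC1 WT, at 27.7%, these were 4 cyclases (1 and 3), 7 receptors and G proteins (4 and 3), 8 effectors (6 and 2), 2 of the CREB group (both higher) and 7 induced genes (1 and 6). Between pDC KO and cDC2 KO, at 25.9%, they were 5 cyclases (3 and 2), 4 receptors and G proteins (1 and 3), 5 effectors (3 and 2), 1 of the CREB group (higher) and 8 induced genes (all lower). Between pDC WT and cDC2 WT, at 23.6%, they were 3 cyclases (2 and 1), 4 receptors and G proteins (1 and 3), 3 effectors (2 and 1), 1 of the CREB group (higher) and 5 induced genes (all lower). The median log2 difference of the induced genes between pDC and cDC1 was −1.27 in KO and −1.47 in WT, against −0.09 and −0.05 over all genes, and from cDC2 it was −1.87 in KO and −1.12 in WT, against −0.08 and 0.07. Fos and Junb are also among the 12 dissociation stress genes, of which 3 were called lower in pDC KO than in cDC1 KO, and 5 lower and 2 higher in pDC WT than in cDC1 WT.

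The members with the widest spread of group means were Pde8a, Pde1b and Pde3b, whose highest and lowest groups lay 6.69, 3.26 and 3.25 apart on a log2 CPM scale. The genes whose log2 CPM over the 15 libraries was most like that of Pde8a were Selenoh (Pearson r = 0.949), Pgam1 (0.945) and Irf5 (0.937). For Pde1b they were Ncoa7 (0.963), Cd81 (0.949) and Cyb5a (0.946), and for Pde3b Rad51ap1 (0.917), Ifitm2 (0.915) and Abcb1a (0.903). The 15 points fall into the 3 subsets and share that structure, so these values describe likeness of pattern and carry no p-value.

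On the mm10 genome build, in the GENCODE M21 annotation, Pde3b lies at chr7:114415281-114539251 and Pde8a at chr7:81213596-81334533, both protein-coding genes on the plus strand. Pde1b (chr15:103503034-103530052), Pde4a (chr9:21165714-21213248) and Pde4b (chr4:102087543-102607259), like Pde3b, overlap no other annotated gene. Pde8a overlaps Gm7180 on the other strand, Pde7a (chr3:19223108-19311322) overlaps the antisense gene Gm16093, and Pde7b (chr10:20398004-20725078), Pde8b (chr13:95024454-95250336) and Pde4d (chr13:108449948-109953461) overlap 2, 2 and 5 small or non-coding genes. The libraries mark strand, but the strand setting of the counting is not given in the sources used here, so reads of overlapping pairs may be shared.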

How the data were processed

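Thymic cDC1, cDC2 and pDC of KO and WT mice were profiled by strand-specific 3′ tag sequencing, per the labels' protocols. The authors deposited unnormalized whole-number counts for each gene and library. STAR, HTSeq, DESeq2 and mm10 are named by the submitters' processing notes; the roles of these tools, their versions and duplicate handling are not given in the sources used. Identifiers were matched to symbols (21745 of 22165).

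Genes were kept by filterByExpr of edgeR 4.0.16 (minimum count 10; 11746 kept, those left out holding 0.0538% of counts), scaled by TMM, and fitted by a robust quasi-likelihood model with 1 coefficient per group over all 15 libraries in R 4.3.3. Two-sided p-values were Benjamini-Hochberg adjusted across the 11746 genes, with a threshold of 0.05. The spread is pooled over groups, on which groups of 2 libraries depend. CPM use effective library sizes, log2 CPM a prior count of 2, and floors of 3 counts cover counting error only. The test was run on simulated counts first. RefSeq gave the promoters.

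The members and lists were chosen with earlier results of these data known. Named genes were the members, other tested phosphodiesterases, from each signalling list the called genes or else the 2 with the smallest p, and for the 3 members with the widest group means the 3 most correlated genes. Alternatives were DESeq2 1.42.0, voom of limma 3.58.1 with quality weights, RLE scaling, no filter, only the groups compared, a replicate block, and leaving out each library.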

Additional observations from a re-analysis of the deposited data

How the results depend on the processing

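The number of the 9 members called was recomputed under 21 alternatives (20 for the average, whose groups are all groups, so that a fit of only the groups compared was not run). In cDC1 it was 0 and became 1 with limma voom, no filter or only the groups compared, and was 0 to 1 with 1 library left out (1 without pDC KO 3 or pDC WT 3). In pDC the 1 is Pde8a, whose difference guided the choice of genes, so the count is only a description; it became 0 with limma voom, the replicate block or only the groups compared, and was 0 to 1 with 1 library left out (0 without cDC1 KO 1 or 2, cDC2 KO 1, 2 or 3, pDC KO 1 or 2, or pDC WT 2 or 3). In the average it was 1 and became 2 with DESeq2 or no filter, 0 with the replicate block, and 0 to 2 with 1 library left out. The second member in the average with DESeq2 or no filter was Pde8a, whose pDC difference enters the average. For the pDC against the cDC1 effect 0 became 1 with DESeq2 and 2 with no filter, and for the pDC against the cDC2 effect 1 with no filter. These comparisons take in the same Pde8a difference, so their counts are also only a description. Between cDC2 WT and cDC1 WT 2 became 4 with no filter, 1 with the replicate block, 0 with only the groups compared, and 0 to 3 with 1 library left out. Between cDC2 KO and cDC1 KO 0 became 2 with limma voom and 3 with only the groups compared. With 1 library left out, the count was 3 to 6 between pDC KO and cDC1 KO (3 without cDC1 KO 2) and 3 to 5 between pDC WT and cDC1 WT (3 without cDC1 WT 1 or 2). All other counts stayed within 1.5 times, no called member changed sign, and the causes of these changes were not tested. Between libraries with the same replicate number, deviations from the group mean had r of −0.18 to 0.17 over 33 pairs, 7 over 0.1. When both groups hold 2 libraries, both replicate numbers give the same r by construction, and KO and WT libraries cannot share a mouse. The check therefore cannot tell whether subsets came from the same mice. The fit with the replicate block left the other counts within 1.5 times. Pde7b, Pde8b, Pde10a and Pde8a in pDC have too few counts for small differences to be detectable at this depth.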

Other observations

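Of the 5 other tested genes within 500000 bases of Pde3b, 1 was called between KO and WT in the average over the subsets. It was Spon1, which encodes the secreted protein F-spondin, and it was looked up after the Pde3b values had been seen. Spon1 stood at 0.523 and 1.17 CPM in cDC1 KO libraries, against 0 counts in both cDC1 WT libraries. In cDC2 it stood at 14.4, 11.0 and 14.7 CPM in KO libraries, against 3.64 and 4.97 CPM in WT libraries. In pDC it stood at 3.15, 2.78 and 2.45 CPM in KO libraries, against 0.781, 0.903 and 1.25 CPM in WT libraries. KO lay above WT without overlap in all 3 subsets, and the averaged log2 difference was 2.90 (edgeR, adjusted p = 0.0432), a fitted value that includes the cDC1 WT group at 0. In single subsets 0 of the 5 neighbours were called by edgeR, with 2 in cDC1, 1 in cDC2 and 1 in pDC at an unadjusted p under 0.05 and a smallest adjusted p of 0.302 in cDC2. The neighbour farthest in the other direction in the average was Cyp2r1, at −0.79. Around Pde8a, 0 of 14 tested neighbours within the same distance were called in any of the 4 genotype comparisons (edgeR, smallest adjusted p = 0.326, in cDC2, where 1 was at an unadjusted p under 0.05 and 0 were in the other comparisons).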
